A study of Mus musculus with 7 samples.

Results

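Cadherins and protocadherins were compared between 2 mouse models of glioblastoma (GBM). The members were all rows of the count table whose gene name was Cdh followed by a number alone or began with Pcdh, which gave 92 of 49492 genes: 23 cadherins, 12 non-clustered protocadherins and 57 clustered protocadherins. Of these, 33 passed a filter on low counts, 57 had 0 counts in all 7 libraries, each with a span that lies wholly inside other genes, and 2 (*Cdh3* and *Cdh16*) had counts but did not pass. The 57 genes with 0 counts were read instead from a table of FPKM values, which measures exons and names every member in 54 rows, 45 of which passed its own filter.

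NPCTKO tumors (4 samples) arose from neocortical neural precursors in which tumor suppressor genes, *Trp53* and *Nf1* among them, were targeted by Cas9 after in utero electroporation, with a piggyBac cassette that also expressed EGFP or DsRed, and the labelled tumor cells were sorted by FACS. NSCHRas-shp53 tumors (3 samples) arose in the ventricular-subventricular zone of adult mice injected with lentivirus that carried a *Trp53* short hairpin RNA and human HRAS with the G12V change, and the whole tumor tissue was used without sorting. The labels give the strain C57BL/6, an age of 3 months and GBM tissue for all samples, and no normal brain was among them. Model and preparation changed together and cannot be told apart, and in bulk RNA fewer cells of a type and less RNA per cell cannot be told apart either.

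Cadherins are calcium-dependent adhesion molecules whose extracellular repeats bind like molecules on neighbouring cells. Classical cadherins (type I and type II) anchor to actin through catenins, whereas atypical cadherins and protocadherins have other tails or none. In the brain they hold neural progenitors together, match neurites at synapses, seal vessels and, in the clustered protocadherins, give single neurons a surface identity.

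The libraries held 15002873 to 19247326 counts in NPCTKO and 17529054 to 19840860 in NSCHRas-shp53 samples, and the members took 0.0540 to 0.202% and 0.134 to 0.165% of them. Values below are CPM, counts scaled to the size of each library and by TMM factors. On that scale 3 counts stand for 0.130 to 0.234, which was taken as the floor and allows for counting error alone. *Trp53* was still read at 91.9 to 201 CPM in NPCTKO and at 54.9 to 82.3 CPM in NSCHRas-shp53 samples. NPCTKO samples 1 and 2 stood apart from samples 3 and 4: in log2 CPM over all genes the correlation was 0.980 within the former and 0.946 within the latter, against 0.818 to 0.880 between them. No label ties a sample to an animal of its own, so p-values measure the spread between these samples, which may be technical. Markers of cell types also moved with the model. The paper found OLIG2, SOX2 and GFAP in NPCTKO tumor cells. OPC, astrocyte and stem cell genes are thus not markers of other cells alone. Summed CPM was 38.7 to 471 in NPCTKO and 535 to 942 in NSCHRas-shp53 for 9 endothelial genes (3 higher), 28.0 to 42.9 and 322 to 540.2 for 10 mural genes (6 higher), 18.8 to 40.4 and 277 to 536 for 7 neuronal genes (6 higher, *Tubb3* at 0 counts), 175 to 509 and 2080 to 2866 for 6 astrocyte genes (3 higher, *Gfap* at 0 counts), 31.0 to 90.3 and 201 to 522 for 4 fibroblast genes (2 higher), and 2272 to 5411 and 487 to 855 for 5 genes of oligodendrocyte precursor cells (OPC; 4 lower). For 8 genes of tumor-associated macrophages (*P2ry12* at 0 counts) it was 270.1 to 13505 and 1323 to 3986 with no call, and for 4 T cell genes 2.92 to 20.3 and 8.17 to 19.9 with no call. Of the neural stem cell markers *Nes* was higher, at 53.0 to 256 and 729 to 867 (edgeR, adjusted p = 0.027), and *Sox2* had 0 counts. In FPKM *Sox2* was at 71.0 to 134 in NPCTKO and 51.1 to 111 in NSCHRas-shp53 samples. *Gfap* was at 19.1 to 86.9 and 716 to 1096 FPKM, and *Tubb3* at 20.4 to 72.6 and 46.1 to 81.1 FPKM. *P2ry12* was at 2.48 to 27.5 and 10.02 to 32.8 FPKM. The 0 counts of these markers are thus no sign that they were silent, and the cause of the 0 counts was not tested. For 5 ependymal or choroid plexus genes summed CPM was 21.3 to 38.3 and 41.9 to 439, without a call and with *Ttr* at 418 in NSCHRas-shp53 sample 3. For 6 oligodendrocyte genes it was 799 to 5011 and 954 to 7256 with no call. The part of these cells in the results below was not tested.

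Of the 33 members tested on counts, 6 were higher in NSCHRas-shp53 tumors (*Cdh2*, *Cdh4*, *Cdh9*, *Cdh18*, *Pcdh8* and *Pcdh19*), 2 were lower (*Pcdh10* and *Pcdha1*) and 25 did not pass the test, by edgeR's quasi-likelihood test with Benjamini-Hochberg adjustment over 16091 genes. Over all genes 13.1% were called, 7.77% higher and 5.28% lower. *Cdh9* and *Cdh18* would not have passed the filter on their NPCTKO samples alone, nor *Pcdha1* on its NSCHRas-shp53 samples alone. These calls thus rest on genes that entered the test through the model in which they are high. The members' median log2 fold change (NSCHRas-shp53 minus NPCTKO) was 0.60, against -0.10 for all genes, and 23 of the 33 were above 0, against 45.9% of all genes. In 15 of the 33 the samples of the models did not overlap, against 31.3% of all genes. Scaled by library totals alone, 6 were higher and 1 lower, and the median of all genes then rose by 0.18. The calls moved with the NPCTKO samples used: without samples 1 and 2 there were 4 higher and 5 lower, against 8.95 and 7.4% of all genes, and without samples 3 and 4 there were 16 higher and 3 lower, against 27.9 and 26% of all genes. Without samples 3 and 4 the calls thus rose over all genes as well.

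**Figure D1:**
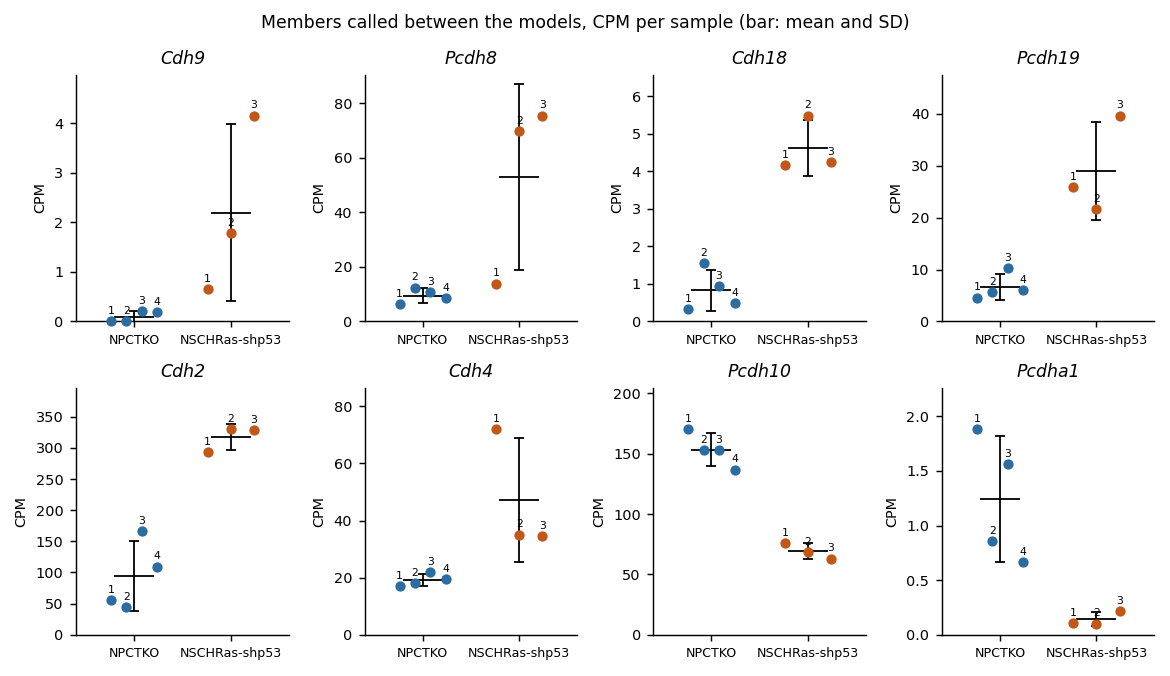
CPM (vertical axes, from 0) of the 8 members called between the models, 1 point per sample with its number, NPCTKO (n = 4) in blue and NSCHRas-shp53 (n = 3) in orange, with a bar at the mean and its SD. In each panel the points of the models do not overlap. *Pcdh10* and *Pcdha1* are the 2 panels in which NPCTKO is higher.

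**Figure D2:**
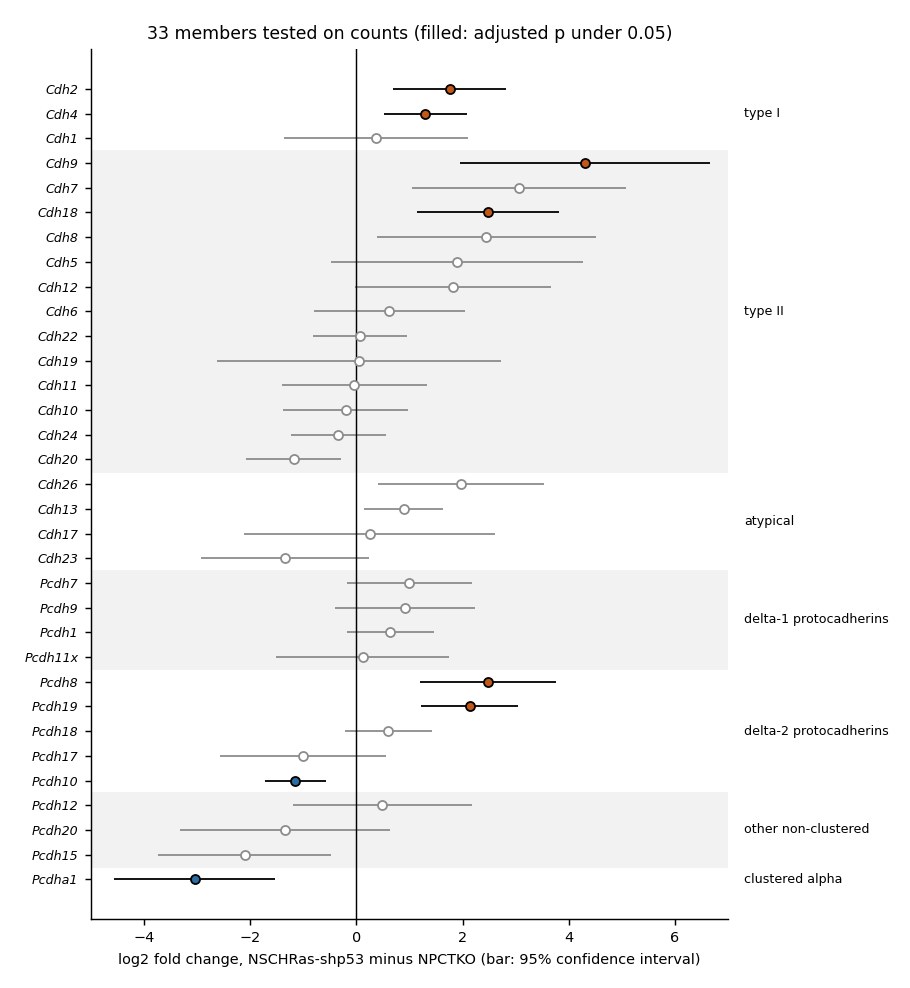
Log2 fold change (horizontal axis, NSCHRas-shp53 minus NPCTKO, with 95% confidence intervals) of the 33 members tested, grouped by role and filled where the adjusted p was under 0.05. Both directions occur among the delta-2 protocadherins, where *Pcdh8* (2.48) and *Pcdh19* (2.13) lie to the right and *Pcdh10* (-1.15) to the left.

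Among the type I cadherins, the classical cadherins of strong junctions, 2 of 3 tested members rose, against 7.77% of all genes. *Cdh2* (N-cadherin, which joins neural progenitors in adherens junctions; chromosome 18 of mm10, 16588877 to 16809246) was read at 55.6, 44.4, 167 and 109 CPM in NPCTKO samples 1 to 4 and at 293, 330.3 and 329 CPM in NSCHRas-shp53 samples 1 to 3. Each NSCHRas-shp53 sample was thus above each NPCTKO sample, and the NPCTKO samples differed among themselves more than the NSCHRas-shp53 samples did. The log2 fold change was 1.75 ± 0.47 (SE; edgeR, adjusted p = 0.043), or 3.37-fold between the means of 94.0 ± 56.2 (SD, n = 4) and 317 ± 21.4 (SD, n = 3) CPM. It was 1.23 without NPCTKO samples 1 and 2 (adjusted p = 0.033) and 2.65 without samples 3 and 4 (adjusted p = 0.00070). The call was lost when NPCTKO sample 1, 2 or 4 or any of the 3 NSCHRas-shp53 samples was left out alone (adjusted p from 0.069 to 0.14) and with library totals in place of TMM (0.087).

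*Cdh4* (R-cadherin of the retina and forebrain; chromosome 2, 179442431 to 179899373) was read at 17.2, 18.1, 21.9 and 19.5 CPM in NPCTKO and at 72.1, 35.1 and 34.5 CPM in NSCHRas-shp53 samples. The models did not overlap, and NSCHRas-shp53 sample 1 was the highest. The log2 fold change was 1.30 ± 0.34 (SE; edgeR, adjusted p = 0.042). The call was lost when NPCTKO sample 1, 2 or 4 (adjusted p from 0.070 to 0.088) or any NSCHRas-shp53 sample (0.081 to 0.15) was left out, without NPCTKO samples 1 and 2 together (0.080), without the filter on low counts (0.055), and in the FPKM values (0.12). *Cdh1* (E-cadherin of epithelia) ranged from 1.56 to 14.2 CPM in NPCTKO and from 4.31 to 9.82 CPM in NSCHRas-shp53 samples, with overlap and no call (log2 fold change 0.37, adjusted p = 0.78). Its log2 fold change ran from -0.39 to 2.06 over 15 alternatives, of which 1 gained a call. *Cdh3* (P-cadherin) stayed near the floor in every library. *Cdh15* (M-cadherin, known from muscle) had no counts of its own, and its FPKM values were 7.47, 2.53, 1.30 and 2.00 in NPCTKO and 0.295, 0.888 and 1.31 in NSCHRas-shp53 samples, which overlap (log2 difference -1.09, limma adjusted p = 0.14).

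Among the type II cadherins, which are expressed in restricted sets of neurons, mesenchyme or vessels, 2 of 13 rose and none fell. Over all genes 7.77% rose and 5.28% fell. Both type II members that rose were rare transcripts. Neither would have passed the filter on low counts on its NPCTKO samples alone. They were thus tested through the model in which they are high, and their number is no independent sign of a rise of this type. *Cdh18*, a brain type II cadherin on chromosome 15 (22549022 to 23474418), was read at 0.336, 1.56, 0.938 and 0.484 CPM in NPCTKO and at 4.15, 5.48 and 4.24 CPM in NSCHRas-shp53 samples. The models did not overlap, and the log2 fold change was 2.48 ± 0.59 (SE; edgeR, adjusted p = 0.030). *Cdh9*, a cadherin of hippocampal synapses on chromosome 15 (16778101 to 16857094), had 0, 0, 4 and 3 counts in NPCTKO and 12, 35 and 96 counts in NSCHRas-shp53 samples (edgeR, adjusted p = 0.031). Since the NPCTKO libraries lay at or near the floor of 3 counts, the fitted log2 fold change of this gene ran from 3.47 to 8.29 over the alternatives on counts and is no measure of its size. The *Cdh18* call was lost without NPCTKO sample 1 or 4 (adjusted p = 0.055 and 0.059) or any NSCHRas-shp53 sample (0.075 to 0.12), and the *Cdh9* call without NPCTKO sample 1, 2 or 4 (0.052 to 0.056) or NSCHRas-shp53 sample 2 or 3 (0.092 and 0.15), without NPCTKO samples 1 and 2 together (0.056), and in the FPKM values (limma, log2 difference 0.55, adjusted p = 0.095). In FPKM the models overlapped for *Cdh18*, at 0.0307, 0.478, 0.275 and 0.186 in NPCTKO and 0.404, 0.194 and 0.234 in NSCHRas-shp53 samples. Its annotated exons hold 0.297% of its span, and the share of its counts from introns was not measured. In all, 9 FPKM rows of members, *Cdh18* among them, were too low to be tested.

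*Cdh5* (VE-cadherin, the adhesion molecule of endothelial junctions) was read at 11.97, 21.4, 0.260 and 19.2 CPM in NPCTKO and at 96.4, 27.7 and 23.2 CPM in NSCHRas-shp53 samples. Every NSCHRas-shp53 sample was above every NPCTKO sample, but the difference did not pass the test (log2 fold change 1.89, 95% confidence interval -0.48 to 4.27, edgeR adjusted p = 0.26). NPCTKO sample 3, with the lowest *Cdh5*, also had the lowest summed CPM of the 9 endothelial markers, 38.7 against 235 to 471 in the other NPCTKO samples, and NSCHRas-shp53 sample 1, with the highest *Cdh5*, had the highest sum, 942 CPM. *Cdh19*, known from Schwann cell precursors, was read at 4.78, 2.03, 133 and 24.1 CPM in NPCTKO and at 28.7, 63.6 and 34.7 CPM in NSCHRas-shp53 samples. It spread over more than the whole range of NSCHRas-shp53 within NPCTKO alone, with the highest and the lowest value of all 7 libraries there (log2 fold change 0.05, edgeR adjusted p = 0.98). Without NPCTKO samples 3 and 4 it was 3.61 (adjusted p = 0.0020), and without samples 1 and 2 it was -0.86 (0.40).

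*Cdh20* was read at 31.7, 32.0, 74.4 and 51.1 CPM in NPCTKO and at 25.6, 20.1 and 16.7 CPM in NSCHRas-shp53 samples. All NPCTKO samples were above all NSCHRas-shp53 samples, without a call (log2 fold change -1.18, edgeR adjusted p = 0.082). Without NPCTKO samples 1 and 2 *Cdh20* passed the test (-1.56, edgeR adjusted p = 0.021), and without samples 3 and 4 it did not (-0.62, 0.075). *Cdh11* (a cadherin of mesenchyme and bone) was read at 15.7, 22.6, 74.6 and 81.7 CPM in NPCTKO and at 32.4, 44.8 and 64.5 CPM in NSCHRas-shp53 samples. *Cdh6* (also known from kidney and neural crest) was read at 6.26, 7.10, 32.8 and 16.5 CPM against 20.8, 14.6 and 37.1 CPM. *Cdh10* was read at 9.35, 14.1, 43.7 and 26.4 CPM against 20.3, 22.6 and 17.9 CPM. In each of these 3 genes NPCTKO samples 1 and 2 were lower than samples 3 and 4, the models overlapped, and the adjusted p was 0.54 or above. Without NPCTKO samples 3 and 4, *Cdh11* (log2 fold change 1.29, adjusted p = 0.017) and *Cdh6* (1.84, adjusted p = 0.011) passed the test, and without samples 1 and 2 they were at -0.69 (adjusted p = 0.16) and -0.0029 (0.997). *Cdh22* (34.8, 16.2, 20.0 and 28.5 CPM against 35.4, 17.0 and 25.9 CPM) and *Cdh24* (9.42, 7.95, 17.1 and 10.3 CPM against 7.38, 8.78 and 10.3 CPM) overlapped as well, with log2 fold changes of 0.07 and -0.34.

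The other type II members were low. *Cdh7* lay between 0 and 0.390 CPM in NPCTKO and between 1.38 and 3.96 CPM in NSCHRas-shp53 samples and came close to a call (edgeR, adjusted p = 0.056). *Cdh8* lay between 0 and 0.834 CPM and between 1.69 and 2.77 CPM (adjusted p = 0.11), and was called higher in the FPKM values, at 0 to 0.289 against 0.751 to 1.46 (limma, log2 difference 0.77, adjusted p = 0.035). That call was lost without any 1 sample other than NPCTKO sample 3 (adjusted p from 0.055 to 0.11). Mean FPKM of *Cdh8* was 0.177 in NPCTKO and 1.02 in NSCHRas-shp53 samples. It thus passed the FPKM filter only through the model in which it is high, and its call is no independent support. *Cdh12* lay between 0.0673 and 0.786 CPM and between 0.660 and 2.68 CPM, with overlap. Of the 13 type II members 9 had log2 fold changes above 0, and *Cdh10*, *Cdh11*, *Cdh20* and *Cdh24* were below it.

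None of the 4 atypical cadherins tested passed. *Cdh13* (T-cadherin, which is tied to the membrane by a lipid anchor and has no cytoplasmic tail) was read at 56.0, 75.7, 79.7 and 121 CPM in NPCTKO and at 151, 185 and 126 CPM in NSCHRas-shp53 samples. The models did not overlap (log2 fold change 0.89, 95% confidence interval 0.15 to 1.63, edgeR adjusted p = 0.11), and NPCTKO sample 4 came close to NSCHRas-shp53 sample 3. Without NPCTKO samples 3 and 4 the log2 fold change was 1.22 (adjusted p = 0.0074). *Cdh23*, which forms the tip links of inner ear hair cells together with the product of *Pcdh15*, was read at 26.0, 25.7, 3.65 and 8.58 CPM in NPCTKO and at 8.85, 4.92 and 5.15 CPM in NSCHRas-shp53 samples. Its NPCTKO samples 1 and 2 were above the other 5 libraries (adjusted p = 0.23). Without samples 3 and 4 the log2 fold change was -2.05 (adjusted p = 0.0030), and without samples 1 and 2 it was 0.08 (0.93). *Cdh17* (of intestine) and *Cdh26* stayed at 2.89 CPM or below, and *Cdh16* (of kidney) had almost no counts.

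Among the delta-2 protocadherins, several of which recruit the actin-regulating WAVE complex, 2 of 5 rose and 1 fell, against 7.77 and 5.28% of all genes. The 250 bases before the annotated starts of these 3 genes are shown because the genes moved in opposite directions within a subfamily. They come from RefSeq on GRCm38.p6, which has promoters for 22 of the member names, and capitals mark a GC box (GGGCGG or CCGCCC).
*Pcdh10*, chr3:45378148-45378397, plus strand: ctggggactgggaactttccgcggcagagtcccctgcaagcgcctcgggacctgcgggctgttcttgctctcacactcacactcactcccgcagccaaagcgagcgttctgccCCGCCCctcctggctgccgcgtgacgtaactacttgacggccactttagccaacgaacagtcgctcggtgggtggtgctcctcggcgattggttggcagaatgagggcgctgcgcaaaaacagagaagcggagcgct
*Pcdh19*, chrX:133688994-133689243, minus strand: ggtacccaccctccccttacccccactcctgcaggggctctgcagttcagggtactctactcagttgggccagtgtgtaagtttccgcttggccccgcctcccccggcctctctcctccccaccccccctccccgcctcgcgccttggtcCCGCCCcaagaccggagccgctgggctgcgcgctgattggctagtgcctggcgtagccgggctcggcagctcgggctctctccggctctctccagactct
*Pcdh8*, chr14:79771313-79771562, minus strand: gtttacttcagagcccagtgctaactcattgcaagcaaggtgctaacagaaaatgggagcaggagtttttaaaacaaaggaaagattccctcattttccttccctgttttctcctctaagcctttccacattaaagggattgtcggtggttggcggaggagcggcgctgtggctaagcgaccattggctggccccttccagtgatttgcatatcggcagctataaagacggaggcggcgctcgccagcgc
Their GC content was 63.2, 69.2 and 51.2%, with 22, 16 and 11 CpG, against medians of 52.4% and 6 over 32851 promoters of this length. A GC box stood in those of *Pcdh10* and *Pcdh19*, as in 32.7% of all promoters. The E-box CACCTG or CAGGTG, found in 17.2% of all, and the cyclic AMP response element TGACGTCA, found in 1.55%, were in none of the 3. The promoters of *Pcdh10*, which fell, and *Pcdh19*, which rose, were thus the more GC-rich, and a match of letters does not show a bound site.

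*Pcdh19* (an X-linked protocadherin, mutated in a form of epilepsy, that pairs with N-cadherin; 133582860 to 133688987 on chromosome X) was read at 4.57, 5.62, 10.2 and 6.04 CPM in NPCTKO and at 25.9, 21.6 and 39.6 CPM in NSCHRas-shp53 samples. Even the lowest NSCHRas-shp53 sample stood well clear of the highest NPCTKO sample. The log2 fold change was 2.13 ± 0.40 (SE; edgeR, adjusted p = 0.014), the smallest adjusted p of the members on counts, and it was 1.86 and 2.50 without NPCTKO samples 1 and 2 and without samples 3 and 4. Of 15 alternatives the call was lost in 1, without NSCHRas-shp53 sample 3 (adjusted p = 0.078). *Pcdh8* (arcadlin, which is induced by neuronal activity and takes N-cadherin off the surface; chromosome 14, 79766775 to 79771312) was read at 6.32, 12.4, 10.7 and 8.58 CPM in NPCTKO and at 13.9, 69.8 and 75.5 CPM in NSCHRas-shp53 samples. NSCHRas-shp53 sample 1 lay just above the NPCTKO range and samples 2 and 3 far above it. The log2 fold change was 2.48 ± 0.56 (SE; edgeR, adjusted p = 0.026), and the call was lost without NPCTKO sample 1 or 4 (0.056 and 0.054), without NSCHRas-shp53 sample 2 or 3 (0.10 and 0.11), and without NPCTKO samples 1 and 2 together (0.059).

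*Pcdh10* (OL-protocadherin, which guides axons and binds a WAVE complex subunit; chromosome 3, 45378398 to 45435623) went the other way. It was read at 170.4, 153, 153 and 137 CPM in NPCTKO and at 76.1, 68.1 and 63.1 CPM in NSCHRas-shp53 samples. Both models varied little, with means of 153 ± 13.8 (SD, n = 4) and 69.1 ± 6.57 (SD, n = 3) CPM, and the NPCTKO samples 1 and 2 did not stand apart from 3 and 4 in this gene. The log2 fold change was -1.15 ± 0.25 (SE; edgeR, adjusted p = 0.022), and -1.03 and -1.24 without samples 1 and 2 and without samples 3 and 4. The call was lost without NPCTKO sample 1 or 2 (adjusted p = 0.055 and 0.054), without any NSCHRas-shp53 sample (0.072 to 0.13) and with library totals in place of TMM (0.053). Summed CPM of the OPC markers was lower in NSCHRas-shp53 samples too, as given above. Within NPCTKO that sum was 4248 and 5411 in samples 1 and 2, and 2404 and 2272 in samples 3 and 4. A link of these markers to *Pcdh10* was not tested.

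The other 2 delta-2 members did not pass. *Pcdh17* was read at 30.4, 37.1, 229.5 and 119.6 CPM in NPCTKO and at 55.3, 38.5 and 62.0 CPM in NSCHRas-shp53 samples, so that NPCTKO samples lay on both sides of the other model (log2 fold change -1.01, edgeR adjusted p = 0.36). Without NPCTKO samples 1 and 2 it was -1.72 (adjusted p = 0.024), and without samples 3 and 4 it was 0.61 (0.087). *Pcdh18* was read at 5.92, 5.54, 9.38 and 6.41 CPM against 11.04, 10.7 and 9.30 CPM, with overlap between NPCTKO sample 3 and NSCHRas-shp53 sample 3.

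The 4 delta-1 protocadherins, which carry an extra cadherin repeat, all had log2 fold changes above 0 and none was called. *Pcdh9* was read at 26.0, 30.3, 128 and 96.2 CPM in NPCTKO and at 115, 179.8 and 103 CPM in NSCHRas-shp53 samples. *Pcdh7* was read at 18.8, 24.8, 90.3 and 43.5 CPM against 76.8, 91.9 and 97.0 CPM. In both genes NPCTKO samples 1 and 2 were far below the other model, while sample 3 lay inside its range. Their log2 fold changes of 0.92 and 1.00 (edgeR, adjusted p = 0.32 and 0.23) became 2.22 and 2.01 without samples 3 and 4 (adjusted p = 0.0016 and 0.0010), and 0.27 and 0.43 without samples 1 and 2 (0.57 and 0.40). *Pcdh1* was read at 102, 80.6, 68.7 and 53.7 CPM in NPCTKO and at 103, 77.98 and 174 CPM in NSCHRas-shp53 samples, which overlap (log2 fold change 0.64, adjusted p = 0.27). *Pcdh11x*, on the X chromosome, stayed between 1.82 and 18.03 CPM in all libraries (0.12, adjusted p = 0.93). Its log2 fold change ran from -0.58 to 1.69 over 15 alternatives, of which 1 gained a call.

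Of the other non-clustered protocadherins, *Pcdh15* spread widely within NPCTKO. It was read at 47.4, 46.7, 291 and 214 CPM in NPCTKO and at 39.6, 40.4 and 24.7 CPM in NSCHRas-shp53 samples. All NPCTKO samples were above all NSCHRas-shp53 samples, by little in samples 1 and 2 and by much in samples 3 and 4 (log2 fold change -2.11, 95% confidence interval -3.74 to -0.47, edgeR adjusted p = 0.089). Without samples 1 and 2 the log2 fold change was -2.83 (adjusted p = 0.0061), and without samples 3 and 4 it was -0.44 (0.19). *Pcdh20* was read at 4.57, 8.03, 46.6 and 6.17 CPM against 5.14, 4.21 and 9.95 CPM, with NPCTKO sample 3 alone above all others (adjusted p = 0.33). *Pcdh12* (VE-cadherin-2 of endothelium) lay between 0.104 and 1.64 CPM in all libraries, with its lowest value in NPCTKO sample 3, as for *Cdh5*.

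**Figure D3:**
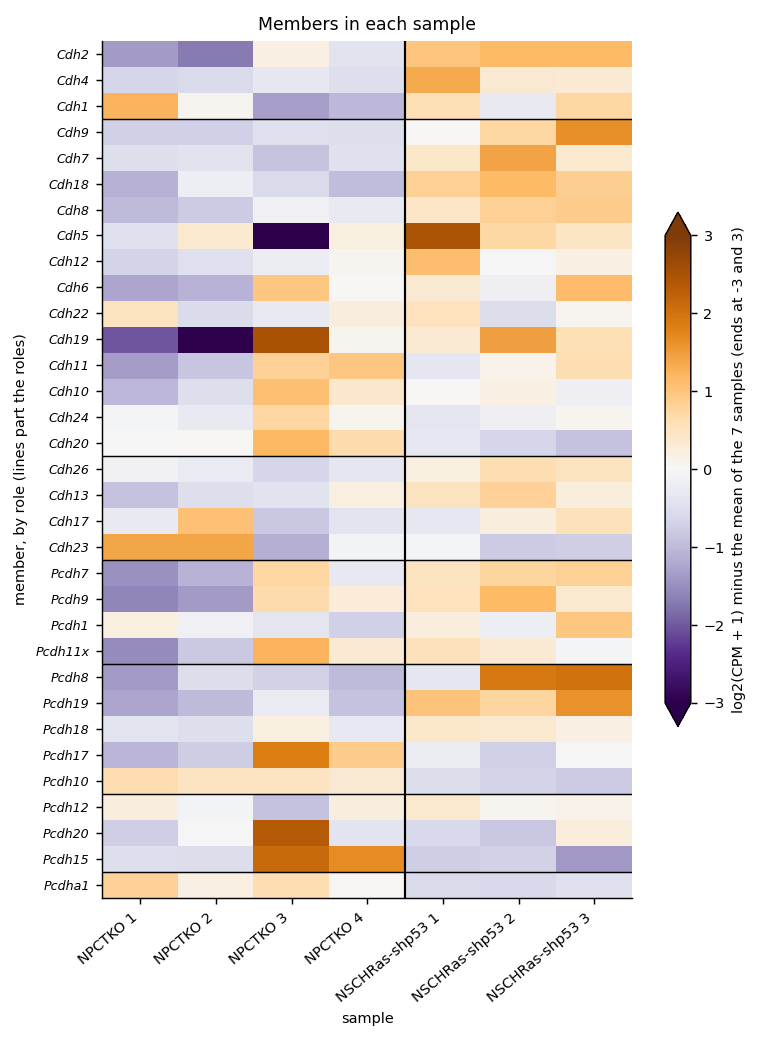
Log2(CPM + 1) of the 33 tested members (rows, by role) in the 7 samples (columns), as the difference from the mean of the 7 samples, in a colour scale that ends at -3 and 3 (1 value, *Cdh5* in NPCTKO sample 3, is lower). Many rows turn from purple in NPCTKO samples 1 and 2 to orange in sample 3, such as *Cdh19*, *Pcdh9* and *Pcdh17*, whereas *Pcdh10* has the same shade in all 4 NPCTKO samples.

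The split within NPCTKO ran across the genes tested as a whole and was not particular to the family. In the family samples 3 and 4 were more often the higher pair. In 19 of the 33 members NPCTKO samples 3 and 4 were both above samples 1 and 2, and in 6 both were below, against 36.3 and 37.9% of all genes tested. In FPKM it was 19 and 5 of 45 rows, against 28.6 and 42.9%. The members are long genes, with a median span of 139 kb against 23.5 kb for all genes tested, and the exons of the median member hold 4.38% of the span. Of the 19 members that span at least 100 kb, samples 3 and 4 were above in 14, against 58.9% of all genes of that length. Of the 14 shorter members they were above in 5, against 36.3% of all genes tested at any length. Across 14176 genes, which share the libraries and are not independent, the difference between samples 3 and 4 and samples 1 and 2 had a Spearman correlation of 0.44 with span and of -0.61 with the GC content of transcripts, and the members' median GC content was 47.0% against 51.0%. Summed CPM of the macrophage markers was 10835 and 13505 in NPCTKO samples 1 and 2, and 270.1 and 1663 in samples 3 and 4. The sums of endothelial, T cell, oligodendrocyte and OPC markers were lower in samples 3 and 4 too. *Nes* and the sum of neuronal markers were higher there, and the sums of mural, astrocyte, fibroblast and ependymal or choroid plexus markers did not split this way. Not all neuronal genes followed their sum. *Slc17a7* was at 6.79 and 6.16 CPM in NPCTKO samples 1 and 2, and at 0.260 and 0.484 CPM in samples 3 and 4. *Rbfox3* in CPM and *Tubb3* in FPKM did not split this way. The parts of length, base composition and cell content in this split were not tested.

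The clustered protocadherins are 3 arrays of genes on chromosome 18 from which single neurons choose a few isoforms each. Apart from *Pcdha1*, they could be read from FPKM only. In FPKM, 4 of the 45 member rows tested were higher in NSCHRas-shp53 tumors (*Cdh2*, *Cdh8*, *Pcdh8* and *Pcdh19*) and 4 were lower (*Pcdh10*, *Pcdhb6*, *Pcdhb10* and the shared row of *Pcdhb2* and *Pcdhb3*), by limma on log2(FPKM + 1) with adjustment over 14748 rows. Over all rows 15.5% were called, 9.36% higher and 6.12% lower. Among the 4 higher rows, *Cdh8* passed the FPKM filter only through the NSCHRas-shp53 samples, where it is high. Of the 45 rows 24 had differences above 0, against 45.7% of all rows. *Cdh2*, *Pcdh8*, *Pcdh10* and *Pcdh19* were called in the same direction in counts and FPKM.

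A single FPKM row holds the alpha and gamma clusters, with the names of 35 members and 4 other names, so that single alpha and gamma genes could not be told apart. It was read at 147, 144, 226 and 149 FPKM in NPCTKO and at 187, 203 and 227 FPKM in NSCHRas-shp53 samples. NPCTKO sample 3 lay inside the range of the other model and the other 3 samples below it (log2 difference 0.32, 95% confidence interval -0.31 to 0.96, limma adjusted p = 0.46). *Pcdha1* was the 1 clustered member with counts, and 7823 bases of its span lie in no other gene. It had 28, 11, 30 and 11 counts in NPCTKO and 2, 2 and 5 counts in NSCHRas-shp53 samples, or 0.665 to 1.88 and 0.101 to 0.216 CPM (edgeR, adjusted p = 0.023). NSCHRas-shp53 samples 1 and 2 thus lay below the floor of 3 counts and no fold change is given here, and the call was lost without any of the 3 (adjusted p from 0.084 to 0.11).

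In the beta cluster 3 of 17 rows tested were lower in NSCHRas-shp53 tumors and none was higher, against 6.12 and 9.36% of all rows. *Pcdhb10* was read at 9.27, 8.67, 9.17 and 4.81 FPKM in NPCTKO and at 1.57, 0.780 and 0.794 FPKM in NSCHRas-shp53 samples. Even NPCTKO sample 4, well below the other 3, was above every NSCHRas-shp53 sample. The log2 difference was -2.12 ± 0.30 (SE; limma on log2(FPKM + 1), adjusted p = 0.0039), and the call was kept in all 12 alternatives, with adjusted p up to 0.025. The shared row of *Pcdhb2* and *Pcdhb3* was read at 3.64, 3.43, 4.33 and 3.51 FPKM against 1.5004, 0.941 and 1.39 FPKM (log2 difference -1.06, adjusted p = 0.017), and *Pcdhb6* at 2.44, 1.17, 1.73 and 1.87 FPKM against 0.569, 0.469 and 0.475 FPKM (-0.88, adjusted p = 0.030). Neither overlapped between the models. The call of *Pcdhb2* and *Pcdhb3* was lost without NSCHRas-shp53 sample 2 or 3 (adjusted p = 0.067 and 0.064), and that of *Pcdhb6* without NPCTKO sample 1 or 4 (0.075 and 0.058) or any NSCHRas-shp53 sample (0.072 to 0.10).

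The other 14 beta rows tested did not pass, and 6 of the 17 had differences above 0. *Pcdhb11* did not overlap between the models, at 0.802 to 1.52 FPKM in NPCTKO and 0.340 to 0.581 FPKM in NSCHRas-shp53 samples (adjusted p = 0.093). The row shared by *Pcdhb5*, *Pcdhb7*, *Pcdhb13* and *Pcdhb14* lay at 3.53 to 6.22 and 2.98 to 4.48 FPKM, and *Pcdhb9* at 1.06 to 4.28 and 2.47 to 4.14 FPKM. *Pcdhb1* was too low to be tested, at 0.133 to 0.441 FPKM in NPCTKO and 0 to 0.0397 FPKM in NSCHRas-shp53 samples. Beta genes are near-identical copies in long stretches, and the authors' assignment of reads among them was not tested, so single beta values are uncertain.

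**Figure D4:**
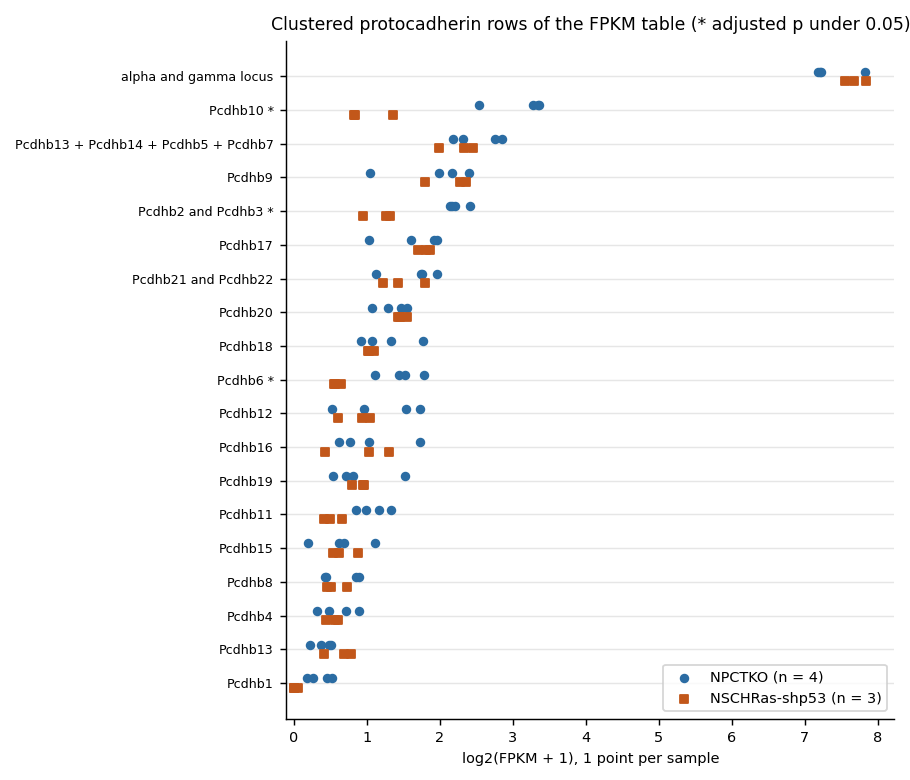
Log2(FPKM + 1) (horizontal axis) of the 19 FPKM rows of clustered protocadherins, 1 point per sample, NPCTKO (n = 4) as blue circles and NSCHRas-shp53 (n = 3) as orange squares, with an asterisk where the adjusted p was under 0.05. The row of the alpha and gamma clusters lies far above all beta rows, and in *Pcdhb10* the models are set apart the most.

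Per exon length, the order of the members differed between the models. In NPCTKO the highest non-clustered members were *Pcdh10* at 33.9 ± 3.17 FPKM (SD, n = 4), *Cdh13* at 26.9 ± 9.20 FPKM and *Cdh2* at 20.5 ± 12.1 FPKM. The samples of these 3 genes overlapped with each other. In NSCHRas-shp53 tumors *Cdh2* led with 66.8 ± 6.65 FPKM (SD, n = 3), above *Cdh13* at 42.1 ± 6.25 FPKM in every sample, followed by *Pcdh1* at 18.5 ± 7.90 FPKM, *Pcdh8* at 18.3 ± 12.1 FPKM and *Pcdh10* at 17.1 ± 1.42 FPKM, which overlapped. *Cdh24*, in 3 rows that were summed, went from rank 4 to rank 17, at 20.8, 8.71, 30.9 and 8.18 FPKM in NPCTKO and 2.66, 4.33 and 5.74 FPKM in NSCHRas-shp53 samples. Of the 3 rows, 1 carried the gap, at 18.2, 6.51, 24.7 and 5.04 against 0, 1.23 and 1.72 FPKM, while a second overlapped (2.16 to 5.74 against 2.51 to 3.51 FPKM) and the other stayed at 0.506 FPKM or below. The summed difference (log2 difference -1.63, limma adjusted p = 0.056) had no counterpart in its counts (log2 fold change -0.34, edgeR adjusted p = 0.59).

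**Figure D5:**
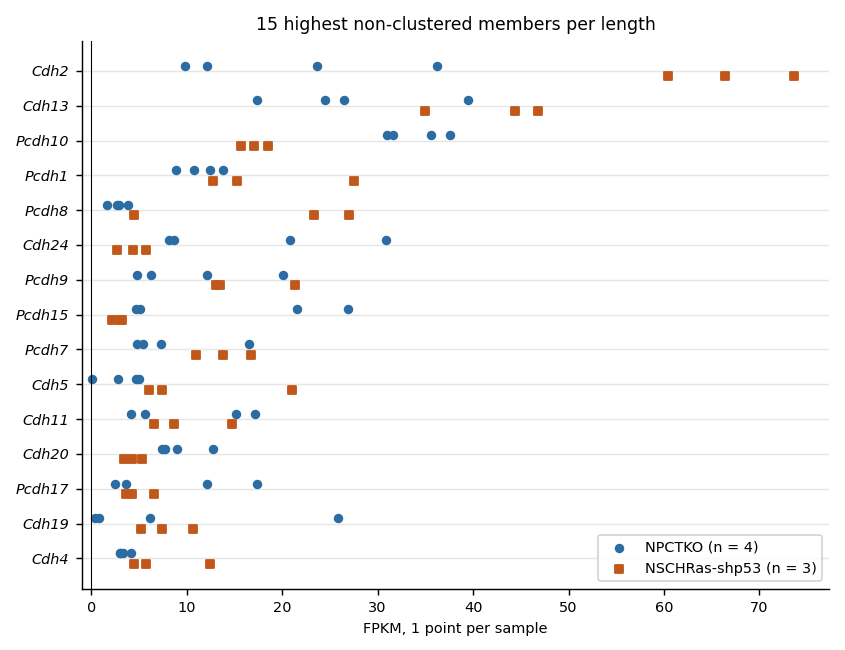
FPKM (horizontal axis) of the 15 non-clustered members with the highest mean in either model, 1 point per sample, NPCTKO (n = 4) as blue circles and NSCHRas-shp53 (n = 3) as orange squares. *Cdh2* reaches 60.4 to 73.7 FPKM in NSCHRas-shp53 and 9.82 to 36.3 FPKM in NPCTKO samples, while *Pcdh10* lies at 15.7 to 18.5 and 31.0 to 37.6 FPKM.

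Of 70 genes that act with cadherins, 57 were tested, of which 10 were higher and 1 lower in NSCHRas-shp53 tumors, against 7.77 and 5.28% of all genes. The counts in the shorter lists below are to be read against the same shares, and several rest on 1 gene. Of the genes called, *Pkp1*, *Cdhr1*, *Cdhr3* and *Mmp3* would not have passed the filter on low counts on their NPCTKO samples alone. Among 20 catenins and other cytoplasmic or junctional partners 2 rose, and the 3 with the smallest p were *Pkp1* (plakophilin 1), *Nectin3* and *Ctnnd1* (p120 catenin). *Nectin3*, which seeds junctions beside cadherins, was read at 10.2, 13.7, 29.0 and 31.7 CPM in NPCTKO and at 67.6, 95.3 and 87.2 CPM in NSCHRas-shp53 samples (log2 fold change 1.98, edgeR adjusted p = 0.023). *Pkp1* was called, at 0 to 0.390 CPM in NPCTKO and 2.19, 3.04 and 37.2 CPM in NSCHRas-shp53 samples (edgeR, adjusted p = 0.019). Its level there was thus high in sample 3 alone. *Ctnnd1* was not called (1.10, adjusted p = 0.067). The catenin that binds classical cadherins and also acts in Wnt signalling, *Ctnnb1*, was read at 146, 206, 259.9 and 249 CPM against 300.2, 108 and 209 CPM, with overlap (-0.07, adjusted p = 0.93).

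A list of other cadherin superfamily members also held *Fjx1*, which is not itself a cadherin. Of its 16 genes tested, 6 rose: *Cdhr1*, *Fjx1*, *Celsr1*, *Cdhr3*, *Celsr3* and *Clstn2*. *Celsr1* (a planar polarity cadherin) was read at 2.56, 2.18, 0.990 and 1.39 CPM in NPCTKO and at 7.16, 8.57 and 17.3 CPM in NSCHRas-shp53 samples (log2 fold change 2.63, edgeR adjusted p = 0.016), and *Fjx1* (a four-jointed homolog) at 15.2 to 44.6 against 137 to 221 CPM (2.64, adjusted p = 0.0085). *Cdhr1*, known from photoreceptors, lay at 0.202 to 0.625 against 3.76 to 10.2 CPM (4.03, adjusted p = 0.0077). *Cdhr3*, known from ciliated cells, and *Clstn2* were also low in NPCTKO, at 0.0604 to 0.269 and 0.605 to 4.84 CPM.

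Of 6 regulators of cadherin switching 1 rose: *Snai1*, a repressor of *Cdh1*, at 3.43, 2.26, 2.97 and 1.63 CPM in NPCTKO and 5.36, 12.3 and 12.6 CPM in NSCHRas-shp53 samples (log2 fold change 1.97, edgeR adjusted p = 0.032), whereas *Twist2* and *Twist1* followed without a call (adjusted p = 0.13 and 0.20). Of 7 proteases that cut cadherins *Mmp3* rose, from 0 to 0.260 CPM to between 4.43 and 23.4 CPM (edgeR, adjusted p = 0.0082), and *Mmp9* and *Adam10* came next (0.051 and 0.099). *Adam10*, the sheddase of N-cadherin, was read at 70.4, 77.8, 123 and 182 CPM against 245, 213 and 253 CPM, without overlap. Of 8 regulators of the protocadherin clusters *Wiz*, a zinc finger protein, fell, at 128, 112, 117 and 95.3 CPM against 47.7, 54.6 and 49.5 CPM (log2 fold change -1.16, adjusted p = 0.022). *Setdb1*, a histone H3 lysine methyltransferase that acts at these clusters, was read at 77.0, 87.5, 96.0 and 121 CPM against 37.7, 59.6 and 49.8 CPM without a call (-0.96, adjusted p = 0.065). *Dnmt3b* was not called either (-0.62, adjusted p = 0.30). Without any 1 sample, 3 to 9 of the partner genes were higher and up to 2 lower. Without NPCTKO samples 3 and 4 together 24 were higher and 9 lower, against 27.9 and 26% of all genes in that setting.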

How the data were processed

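RNA of 7 libraries was analysed. The authors trimmed reads with Cutadapt, aligned them to mm10 with TopHat 2.1.1 and deposited raw counts of genes, with a counter that no source used here names. The lengths in the file cover the whole span of a gene, introns included, and the 57 members with 0 counts lie wholly inside other genes. The labels name a non-directional second-strand module and the methods another library kit, and no source used here gives a strand setting for the counts, so a gene and its antisense partner cannot be told apart. The authors' FPKM values came from Cufflinks 2.2.1 and cover exons, and 1 row is a locus and may bear more than 1 name. Of its 28538 rows, 3767 without a name were left out and rows of 1 name were summed. FPKM keeps no counts, so its depth is unknown and no interval from counting is given.

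Counts of all genes were fitted with edgeR 4.0.16 (R 4.3.3; TMM factors and filterByExpr), with model as the only term, and a gene was called where its quasi-likelihood p, adjusted after Benjamini and Hochberg over all genes, was below 0.05. Differences are NSCHRas-shp53 minus NPCTKO. The SE was the log2 fold change divided by the square root of F. FPKM rows with a mean of at least 0.5 in a model were fitted with limma 3.58.1 (trend) on log2(FPKM + 1), a scale that understates the change of low genes. DESeq2 1.42.0, other scalings, filters and pseudocounts, a replicate block, and leaving out samples were alternatives. Both tests were tested on simulated data. Tables and figures were made in Python 3.11.15.

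The members, the marker lists and the partner lists were chosen with earlier results of these data known. Values in every sample are given for 8 members called on counts and 17 others with a mean of at least 10 CPM in a model, and the 3 partner genes of smallest p are named in each list. Other genes and rows, such as the FPKM rows called, *Cdh15*, *Ctnnb1* and further partner genes that rose, were named after their values were seen. The motifs were likewise chosen without a prior test. Promoters came from RefSeq (GRCm38.p6), none from chromosome 18. An item of the NPCTKO design is not reported here.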

Additional observations from a re-analysis of the deposited data

Results flagged for a closer look

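In 4 of 43 values tested, 1 NPCTKO sample lay farther from the other 3 than Dixon's 95% critical value for 4 samples allows, and chance alone flags about 1 in 20 such values. *Cdh19* was read at 132.6 CPM in NPCTKO sample 3, and *Pcdh20* at 46.57 CPM in the same sample. The row of the alpha and gamma clusters was read at 226.4 FPKM in NPCTKO sample 3. *Pcdhb10* was read at 4.814 FPKM in NPCTKO sample 4, the lowest of that model. Sample 3 also had the lowest summed CPM of endothelial markers (38.7) and of macrophage markers (270.1), and the part of either in these values was not tested.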

How the results depend on the processing

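On the deposited counts the members' calls were 6 higher and 2 lower in NSCHRas-shp53 tumors. They became 2 and 0 with a replicate block, 16 and 3 without NPCTKO samples 3 and 4, 4 and 5 without samples 1 and 2, 9 and 4 with the DESeq2 test, 6 and 1 without TMM factors, and 0 to 8 and 0 to 2 when 1 sample was left out. Over all genes 1251 were higher and 850 lower, against 718 and 323 with the replicate block, 4638 and 4313 without NPCTKO samples 3 and 4, 2024 and 1922 with the DESeq2 test, 540 lower without TMM factors, and 415 to 1387 higher and 124 to 1208 lower with 1 sample left out. The partner genes, 10 higher and 1 lower, were 5 and 0 with the replicate block, 24 and 9 without NPCTKO samples 3 and 4, 3 lower without samples 1 and 2 or with the DESeq2 test, 0 lower without TMM factors, and 3 to 9 higher and 0 to 2 lower with 1 sample left out. The FPKM rows, 4 higher and 4 lower, were 2 and 2 with the replicate block, 1 and 7 without NPCTKO samples 1 and 2, 9 and 9 without samples 3 and 4, 4 and 6 without the filter on low values, and 0 to 5 and 1 to 4 with 1 sample left out. The causes were not tested.

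The replicate numbers 1 to 3 occur in both models but did not pair the samples. The deviations of same-numbered samples from the model means had correlations of 0.27, -0.19 and 0.18, and not every sample correlated best with its own number. With the block, *Pcdh19* and *Cdh9* were called on counts (edgeR, adjusted p = 0.042 and 0.045) and *Pcdhb10* in FPKM (limma, adjusted p = 0.015).

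Among the alternatives for single members, 395 values kept direction and side of the threshold, 66 lost a call, 24 gained one and 30 turned direction, the last in members without a call on all 7 samples. Without NPCTKO samples 3 and 4 the log2 fold change turned to 1.29 in *Cdh11*, -0.39 in *Cdh1*, 0.012 in *Cdh24*, 0.61 in *Pcdh17*, 0.021 in *Pcdh20* and 0.78 in *Cdh10*. Without samples 1 and 2 it turned to -0.86 in *Cdh19*, 0.082 in *Cdh23*, -0.0029 in *Cdh6* and -0.58 in *Pcdh11x*. *Cdh11* also turned without TMM factors (0.026), with the block (0.61) and in FPKM (0.070), *Cdh10* with the block (0.19) and *Pcdh11x* in FPKM (-0.045). With 1 sample left out it ran from -0.36 to 2.03 in *Cdh19*, -0.17 to 0.31 in *Cdh22*, -0.33 to 0.32 in *Cdh11*, -1.80 to 0.041 in *Pcdh20*, -0.45 to 0.29 in *Cdh10* and -0.19 to 0.86 in *Pcdh11x*.

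Depth limits *Cdh9*, *Cdh7*, *Cdh8* and *Pcdha1*, which had few counts in at least 1 model, and differences there below the floor were not detectable.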
